A study of Mus musculus with 2 samples.

Results

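The 8 genes described here, Dmd, Utrn, Dtna, Dtnb, Dag1, Sgca, Sgcb and Sgcd, encode the core of the dystrophin-glycoprotein complex and its closest relatives. They were chosen by their role in that complex and are 8 of the 22367 protein-coding genes of the mouse GENCODE annotation on the mm9 build. Their Mbnl2-bound RNA was read from HITS-CLIP, in which ultraviolet light links a protein to the RNA it touches, an antibody pulls the protein down, and the bound RNA fragments are sequenced as short tags. The tissue was quadriceps muscle, and 2 genotypes were compared: wild-type (WT) mice and Mbnl1-/- (Mbnl1 KO) mice, which carry a deletion of Mbnl1 exon 3 in all cells, both 15 to 16 weeks old and both labelled C57BL/6. The tags of 3 mice per genotype were deposited as 1 merged table, so that the spread between mice is not known, no test between genotypes was made, and the intervals given with each ratio cover counting error only. Of 820097 tags in both tables, 972 lay on the sense strand of the 8 genes: 282 came from WT and 690 from Mbnl1 KO muscle.

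Dystrophin ties the actin network beneath the muscle membrane to a group of membrane proteins, and through dystroglycan to laminin outside the fibre. Utrophin is its close relative, the dystrobrevins bind both on the inner side, and the sarcoglycans form a membrane subcomplex that stabilises the whole. Loss of dystrophin causes Duchenne muscular dystrophy and loss of a sarcoglycan causes limb-girdle muscular dystrophy. Muscleblind-like proteins such as Mbnl1 and Mbnl2 bind introns and 3′ UTRs and control splicing and the fate of mRNAs, and DMD and DTNA are among the transcripts whose splicing is altered in myotonic dystrophy.

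The tables differed before any gene was considered. WT muscle gave 343554 tags (5176203 reads), whereas Mbnl1 KO muscle gave 476543 (50329234 reads). Tags seen in a single read made up 79.0% of the WT table and 59.5% of the Mbnl1 KO table. Tags whose reference sequence was at least 70% of the same base (single-base tags, mostly runs such as poly(A)) made up 44.0% and 16.97% of the tags on assembled chromosomes. Each count was divided by the tags in its table and is given per 1000000 of them (CPM), and a count of 0 allows up to 3 tags, or 8.73 CPM in WT and 6.30 CPM in Mbnl1 KO muscle. All 6 muscle fibre marker genes had tags (816 in WT and 2802 in Mbnl1 KO muscle for the set, or 2375 and 5880 CPM), so that muscle fibre transcripts as a whole moved the same way as the genes below and their part in those ratios was not tested. Fibroblast markers stood at 416 and 1251 CPM, and the other marker sets (endothelium, Schwann cells, leucocytes, smooth muscle, adipocytes, satellite cells) had 1 to 37 tags in WT and 11 to 87 in Mbnl1 KO muscle. The coordinates of the Mbnl1 deletion were not at hand, and the annotated exons 2 and 3 of Mbnl1 had too few tags to check the genotype, as WT muscle had 5 and 0 tags there and Mbnl1 KO muscle 2 and 4.

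The stretches where tags piled up show what RNA was pulled down. For each gene except Dtna, a window of at most 30 bases is given below from the pile-up with the most tags, single-base tags left aside and ties settled by the number of reads, on the gene's strand and from the mm9 sequence, with a further window for Dmd and Dtnb. Capitals mark the tetramers TGCT or TGCC and also CGCT or CGCC, the short sequences that muscleblind proteins are known to prefer, searched on the strand of the tag only, where neighbouring matches may share bases.
Dag1 3′ UTR, chr9:108109305-108109334, minus strand: tCGCTgcgttttttgatggctctgaagcac
Dmd intron 2, chrX:80508955-80508980, plus strand: tttttgaattatggacagaaaccctt
Dmd intron 45, chrX:81546636-81546662, plus strand: taattctgatgTGCTTGCTattgtttt
Utrn intron 1, chr10:12574320-12574349, minus strand: acttTGCTtgcattttgtactTGCTgatat
Sgcd intron, chr11:46788021-46788050, minus strand: aatgatacattggcatggcacacccgtagc
Sgca 3′ UTR, chr11:94824531-94824560, minus strand: gaTGCCtcttatcctggaccagcactgaaa
Sgcb 3′ UTR, chr5:74026270-74026299, minus strand: aatgcattaacccaaagctacattttcaca
Dtnb intron 15, chr12:3752626-3752646, plus strand: tttgTGCTtcatagctgagag
Dtnb intron 4, chr12:3608759-3608788, plus strand: aaaaaaaaaaaaaaaaaaaaaaaaaagggg
The Dag1 pile-up has the most tags of those in the 8 genes that are not single-base runs, and the last Dtnb window is from the one with the most tags that is such a run. The Dtnb window in intron 15 rests on only 2 tags, 1 from WT and 1 from Mbnl1 KO muscle. The second Dmd window had tags in Mbnl1 KO muscle only, 5 of them from 4338 reads, and both it and the last Dtnb window were chosen after their values were seen.

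Most Mbnl2 tags in these genes were intronic. Over both genotypes 91.0% (95% exact binomial interval 89.1 to 92.8) of the 972 tags lay in introns, 5.86% in 3′ UTRs and 3.09% in other exons, against 63.8%, 25.8% and 10.4% for all protein-coding genes. The genes fell into groups by this measure. Dmd had 96.7% of its tags in introns, Utrn 93.6% and Dtna 81.2%, and Dtnb and Sgcd had tags in introns only. In Dag1 47.5% of the tags were in the 3′ UTR and 14 of the 40 tags were in other exons, in Sgca 6 of the 9 tags were in exons or the 3′ UTR, and in Sgcb none was intronic. The genes with mostly intronic tags are also the longest of the 8, so that a share of tags per gene reflects intron length as well as binding.

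**Figure D1:**
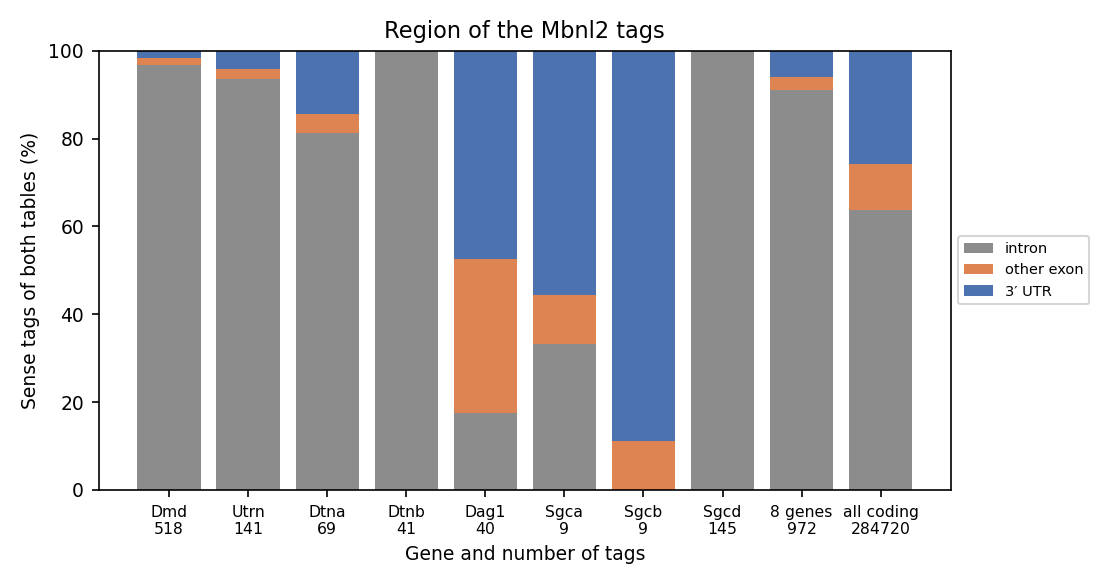
Share (%) of the sense tags of both tables together that fell in introns, 3′ UTRs and other exons, for each of the 8 genes, for the 8 together and for all protein-coding genes, with the number of tags under each bar. Dmd, Utrn, Dtna, Dtnb and Sgcd are mostly intronic, at 81.2% or more, whereas Dag1, Sgca and Sgcb have most of their tags in exons.

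Taken as a set, the 8 genes had a Mbnl1 KO to WT CPM ratio of 1.76 (95% interval 1.53 to 2.03), close to the ratio of 1.74 of the median protein-coding gene with at least 20 tags. Without the single-base tags it was 1.47 (1.26 to 1.72), beside a median of 1.48 over genes, and with counts scaled to the tags in exons of protein-coding genes, 3′ UTRs included, in place of all tags (the exon scaling) it turned to 0.638. The ratio in introns was 1.70 (1.47 to 1.97), from 264 WT and 621 Mbnl1 KO tags, and turned to 0.613 with the exon scaling. Divided by the gene body ratio of the median gene (1.74) it was 0.977. The median intron ratio was lower than that gene body ratio, at 1.30 over the 2477 genes with at least 20 intronic tags. In 3′ UTRs the ratio of the 8 genes was 2.70 (1.41 to 5.61), from 12 and 45 tags, 1.84 (0.960 to 3.83) without single-base tags and 0.977 with the exon scaling. In other exons it was 2.88 (1.15 to 8.63), from 6 and 24 tags, 1.97 (0.784 to 5.89) without single-base tags and 1.04 with the exon scaling. Summed over all protein-coding genes the same ratios were 1.61 for gene bodies, 1.24 for introns, 2.93 for 3′ UTRs and 2.40 for other exons. As a sum, the intronic tags of the 8 genes thus stood somewhat higher than those of coding genes at large (1.70 against 1.24), a difference that was not tested. Dmd held 501 of the 885 intronic tags. Without Dmd the intron ratio was 1.49 (1.20 to 1.86). With single-base tags also left out it was 1.29 (1.01 to 1.66), where all coding introns gave 1.12. By gene the intron ratio was 2.64 in Dtna, 1.88 in Dmd, 1.72 in Utrn and 1.29 in Sgcd, but 0.961 in Dag1 and 0.835 in Dtnb. A tag count depends on how much of the RNA there was as well as on how often Mbnl2 bound it, no RNA level was measured here, and fewer cells of a type cannot be told apart from less RNA per cell.

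Of the 8 genes 3 (Dtna, Sgca and Sgcb) had a ratio of at least 2, and among the 6 genes with at least 20 tags only Dtna did, where 41.5% of the 3877 protein-coding genes with that many tags reached it. The ratio was above 1 in 7 of the 8 genes and in 5 of the 6 with at least 20 tags, beside 79.9% of those 3877. The interval lay above 1 in 3 (Dmd, Utrn and Dtna), beside 38.4% of the 3877. Without single-base tags it lay above 1 in 2 (Dmd and Dtna), beside 26.3% of genes. With the exon scaling only Dtna and Sgca (the latter at 9 tags) were above 1, beside 23.1% of the 3877. Without single-base tags 2 of the 8 (Dtna and Sgca) reached a ratio of at least 2. Among the 5 that then had at least 20 tags, 1 (Dtna) did, beside 28.9% of genes with that many. In introns, where 5 of the 8 genes had at least 20 tags, only Dtna reached it, beside 22.0% of genes. With all tags no gene had a ratio of 0.5 or less, which 3.77% of the 3877 genes had, whereas with the exon scaling Dtnb (0.302) and Sgcd (0.466) did, beside 36.2% of the 3877.

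**Figure D2:**
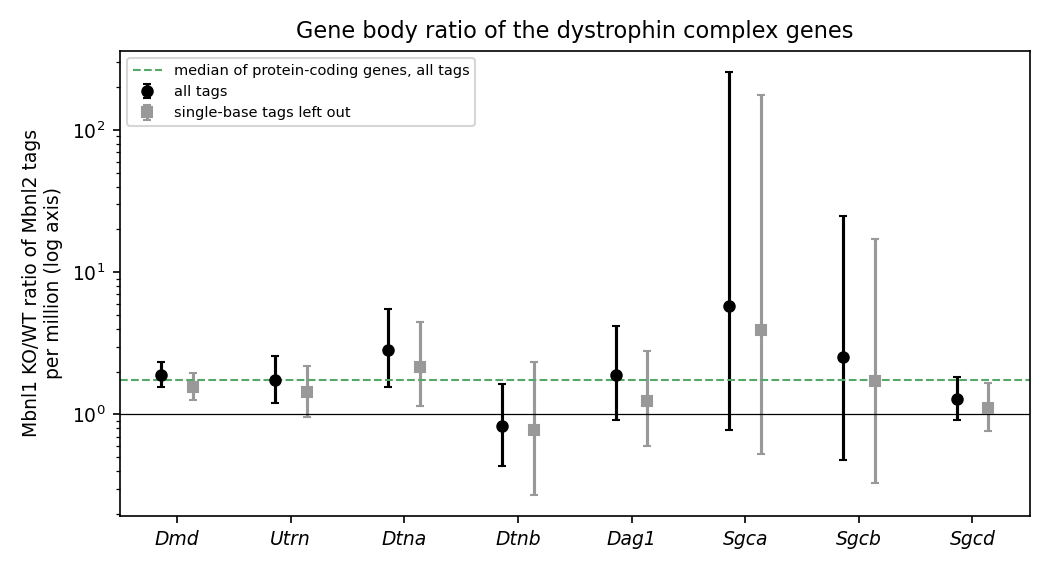
Mbnl1 KO to WT ratio of sense tags, each divided by the tags in its table, on a log axis for each of the 8 genes, with all tags (black) and without single-base tags (grey), exact 95% intervals for counting error only, and the median protein-coding gene (1.74) as a dashed line. With all tags 7 of the 8 genes sit above 1 and the interval of Sgca runs from 0.773 to 256, while with the exon scaling, which is not drawn, only Dtna and Sgca are above 1.

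Dmd, the gene of dystrophin, spans 2257 kb of chromosome X (80194209 to 82451480, plus strand, mm9) with 79 exons in its longest coding transcript, and ranked 7 among protein-coding genes by the number of tags. It had 142 tags in WT and 376 in Mbnl1 KO muscle, or 413 and 789 CPM, which together are 518 of the 972 tags of the 8 genes. The ratio was 1.91 (1.57 to 2.33), and it was 1.57 (1.27 to 1.96) without single-base tags and 0.690 with the exon scaling. Intronic tags made up 139 of the WT and 362 of the Mbnl1 KO tags. Per kb of sequence, Dmd introns carried 0.181 CPM in WT and 0.340 in Mbnl1 KO muscle, where all coding introns carried 0.207 and 0.257. Per kb its introns were thus below coding introns at large in WT and above them in Mbnl1 KO muscle, but without single-base tags they were above in both (0.2503 against 0.2405 in WT and 0.389 against 0.269 in Mbnl1 KO muscle), and none of these differences was tested. The 3′ UTR had 1 tag in WT and 8 in Mbnl1 KO muscle, which is 0.795 and 4.58 CPM per kb against 1.56 and 4.57 for all 3′ UTRs.

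Dmd tags were spread along the gene. Cut into 5 equal parts from the 5′ to the 3′ end, the gene held 47, 26, 27, 15 and 27 tags in WT and 140, 61, 69, 37 and 69 in Mbnl1 KO muscle. The first part held the most tags in both genotypes and the fourth held the fewest. Only 4 places in Dmd had 5 or more overlapping tags, and none had 10. The one shown above in intron 2 had 2 tags from 5 reads in WT and 4 tags from 8118 reads in Mbnl1 KO muscle, 82621 nt from the nearest exon. The one in intron 56 (chrX:82020145-82020190) had 4 tags in WT and 1 in Mbnl1 KO muscle, and all 5 were single-base tags. The penultimate exon, number 78, is the short exon of Dmd that is skipped more often in myotonic dystrophy muscle. It is 32 nt long (chrX:82442843-82442874), and no tag lay in it and 1 tag, in Mbnl1 KO muscle, lay within 500 nt of it. At this depth binding at that exon was not detectable.

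Utrn, the gene of utrophin, which is concentrated at neuromuscular junctions in adult muscle, spans 487 kb of chromosome 10 (12101986 to 12589163, minus strand). It had 41 tags in WT and 100 in Mbnl1 KO muscle, or 119 and 210 CPM. The ratio was 1.76 (1.21 to 2.59) with all tags, 1.43 (0.955 to 2.19) without single-base tags and 0.636 with the exon scaling. Its introns carried 0.240 and 0.412 CPM per kb, where all coding introns carried 0.207 and 0.257, and its 3′ UTR had 1 tag in WT and 5 in Mbnl1 KO muscle. Like Dmd it had no pile-up of 10 tags. Its largest pile-ups, of 6 tags each, were in intron 1, with 2 WT and 4 Mbnl1 KO tags from 4 and 2484 reads, and in intron 45 (chr10:12368084-12368117), with 1 and 5. The last of 5 equal parts of the gene had 1 tag in WT and 13 in Mbnl1 KO muscle, whereas the first had 12 and 21.

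**Figure D3:**
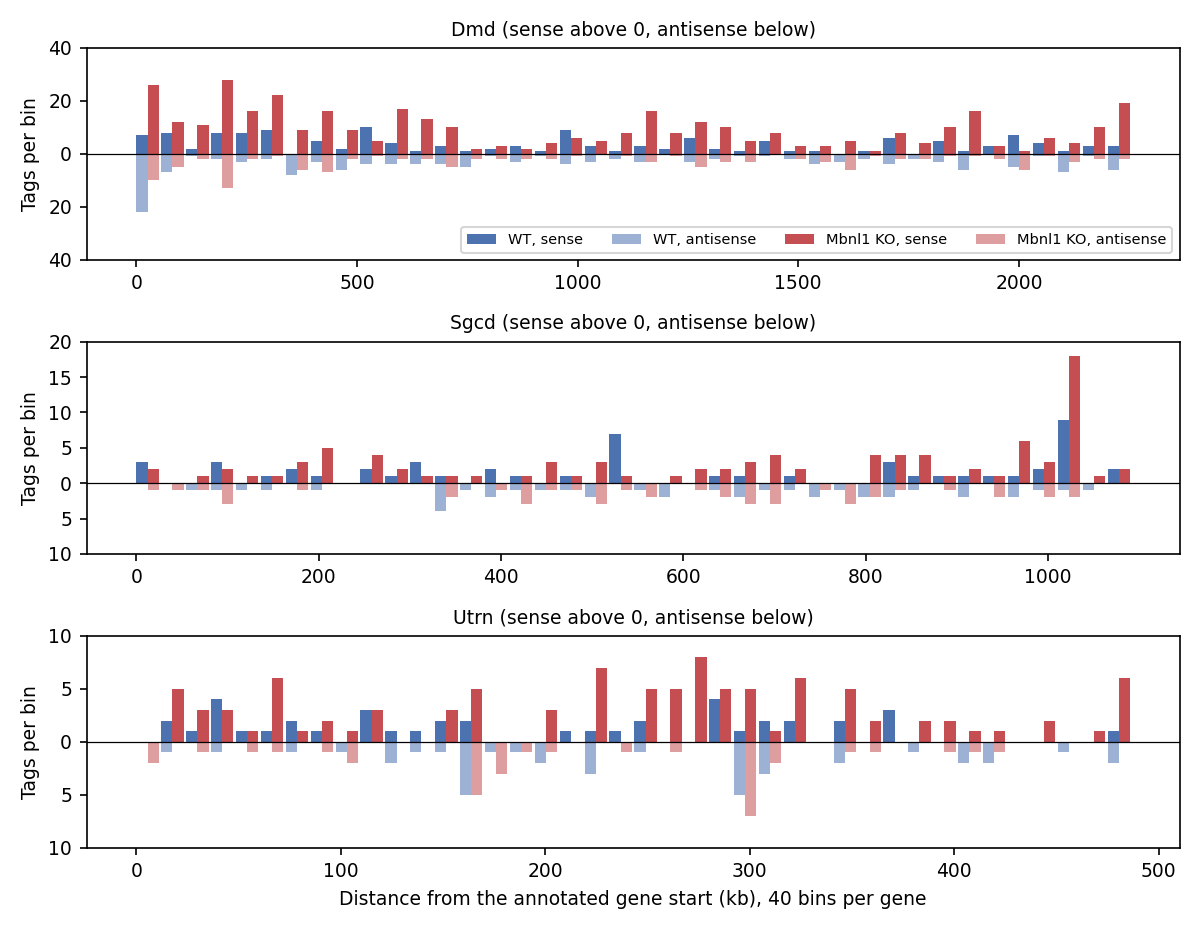
Tags per bin along Dmd, Sgcd and Utrn (x axis, distance from the annotated gene start in kb, 40 bins per gene), with sense tags above 0, antisense tags below 0, WT in blue and Mbnl1 KO in red. Tags are spread over the whole length of Dmd and Utrn with no bin that dominates, and Sgcd has 1 bin near its 3′ end with 9 sense tags in WT and 18 in Mbnl1 KO muscle.

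The dystrobrevins bind dystrophin and utrophin at the membrane. Dtna encodes α-dystrobrevin, the form of muscle fibres, and spans 244 kb of chromosome 18 (23573916 to 23818215, plus strand). It had 14 tags in WT and 55 in Mbnl1 KO muscle, a ratio of 2.83 (1.55 to 5.52), and 2.17 (1.15 to 4.47) without single-base tags. With the exon scaling it was 1.02. With tags of at least 2 reads only, it had 1 tag in WT and 32 in Mbnl1 KO muscle. Most of the tags were intronic (12 and 44 tags, ratio 2.64, 1.37 to 5.50), and the 3′ UTR had 1 and 9 tags. Its pile-up with the most tags lay in the 3′ UTR (chr18:23815382-23815420) and had 1 WT and 3 Mbnl1 KO tags, and its sequence is not shown. The annotation gives Dtna 4 internal coding exons that some transcripts skip, the kind of exon altered in myotonic dystrophy. No WT tag lay within 500 nt of these exons and 3 Mbnl1 KO tags did, 2 of them by exon 13 and 1 by exon 18.

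Dtnb, the gene of β-dystrobrevin, which is made mostly outside muscle fibres, spans 209 kb of chromosome 12 (3572381 to 3781796, plus strand). It had 19 tags in WT and 22 in Mbnl1 KO muscle, all intronic, and its ratio of 0.835 (0.431 to 1.63) was the only one below 1 with scaling to all tags. Single-base tags made up 12 of its 19 WT (63.2%) and 11 of its 22 Mbnl1 KO tags, against 22.7% and 5.51% for the 8 genes. A single run of A in intron 4, the last sequence shown above, held 17 of its 41 tags, 16 of them single-base, 8 from WT and 9 from Mbnl1 KO muscle. Over the alternative settings its ratio ran from 0.302 with the exon scaling to 1.16 with raw tags. Without single-base tags 7 WT and 11 Mbnl1 KO tags were left, a ratio of 0.773, and the part of the poly(A) run in the ratio was not tested further. The ratios of Dtna and Dtnb had intervals that overlap between 1.55 and 1.63, and whether they differ was not tested.

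Dag1 encodes dystroglycan, which is cut into the laminin-binding α and the membrane-spanning β subunit, and spans 58.0 kb of chromosome 9 (108108286 to 108166255, minus strand). Most of its tags lay in exons. It had 11 tags in WT and 29 in Mbnl1 KO muscle, a ratio of 1.90 (0.922 to 4.22), which was 1.25 without single-base tags and turned to 0.687 with the exon scaling. The 3′ UTR held 6 and 13 tags and other exons 2 and 12. Per kb its 3′ UTR had 13.4 CPM in WT and 20.9 in Mbnl1 KO muscle, against 1.56 and 4.57 for all coding 3′ UTRs and 0.795 and 4.58 for Dmd. The pile-up shown above, in exon 4 (chr9:108109299-108109351), had 2 tags from 2 reads in WT and 9 tags from 457 reads in Mbnl1 KO muscle, a ratio of 3.24 (0.671 to 30.9). It was the only pile-up of at least 10 tags in the 8 genes once single-base tags were left out. Only 1 antisense tag lay over Dag1 in each table.

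The sarcoglycans split into a long and intronic gene and a pair of short genes with tags in the 3′ UTR. Sgca, the gene of α-sarcoglycan, spans 13.5 kb of chromosome 11 (94824105 to 94837641, minus strand) and had 1 tag in WT and 8 in Mbnl1 KO muscle, of which 1 and 4 were in the 3′ UTR and 0 and 3 in introns. Sgcb, the gene of β-sarcoglycan, spans 15.0 kb of chromosome 5 (74023988 to 74038983, minus strand) and had 2 and 7 tags, of which 2 and 6 were in the 3′ UTR. Of its tags 2 and 6 lay outside its longest coding transcript, which held 0 and 1, so that the counts rest on another annotated transcript. The ratios of 5.77 (0.773 to 256) for Sgca and 2.52 (0.480 to 24.9) for Sgcb rest on so few tags that their intervals reach below 1, and that of Sgcb turned to 0.912 with the exon scaling. Per kb the 3′ UTR of Sgca had 9.39 CPM in WT and 27.1 in Mbnl1 KO muscle, and that of Sgcb 2.12 and 4.58. Their pile-ups had tags in Mbnl1 KO muscle only, 3 tags from 541 reads in Sgca and 4 tags from 413 reads in Sgcb.

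Sgcd, the gene of δ-sarcoglycan, is annotated over 1093 kb of chromosome 11 (46709755 to 47802471, minus strand) and had 52 tags in WT and 93 in Mbnl1 KO muscle, or 151 and 195 CPM, a ratio of 1.29 (0.909 to 1.85). Without single-base tags the ratio was 1.12 and with the exon scaling 0.466. The value depended on which part of the annotated gene was counted. Within the longest coding transcript (400.7 kb) the counts were 13 and 37, giving 2.05 (1.07 to 4.21), and in the other 692.0 kb they were 39 and 56, giving 1.04 (0.676 to 1.60). In WT 12 of those 39 tags were single-base, including a run of 7 at chr11:47261608-47261657 that had 0 tags in Mbnl1 KO muscle. The first 10 kb past the 3′ end of the longest coding transcript held 9 WT and 17 Mbnl1 KO tags, none of them single-base, and most lie in the fullest of the 40 bins drawn for the gene. The Sgcd window shown above, with 0 WT tags and 6 Mbnl1 KO tags from 554 reads, lies there. The annotation counts it as intron, since a further transcript of Sgcd runs past it.

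The antisense strand was taken as a background measured in the same tables, since the 8 genes are transcribed from the sense strand. Whether other RNA from the opposite strand gave some of these tags was not tested. Over the 8 genes 252 of 534 WT tags were antisense, a share of 47.2% (42.9 to 51.5), and 228 of 918 Mbnl1 KO tags, a share of 24.8% (22.1 to 27.8). Without single-base tags the shares were 38.8% and 20.5%, and with tags of at least 2 reads 30.5% and 13.8%. All coding genes gave 43.9% and 27.3%. In WT Dmd had 145 antisense tags beside its 142 sense tags, an antisense share of 50.5% (44.6 to 56.4), and in Mbnl1 KO muscle 117 beside 376, a share of 23.7% (20.04 to 27.74). Utrn gave 48.8% and 25.4%, and Dtna 51.7% and 24.7%. Sgcd moved less, from 43.5% to 32.1%, and Dtnb gave 36.7% in WT and 38.9% in Mbnl1 KO muscle. In CPM, the antisense count over the 8 genes had a ratio of 0.652 (0.543 to 0.783), where the sense count had 1.76. In WT the sense tags of Dmd, Utrn and Dtna were thus about as many as the tags on the strand opposite to the gene. Without single-base tags the sense strand held more in Dmd, with a WT antisense share of 40.1% (33.0 to 47.5), and in Utrn, with 17 of 50 tags antisense (21.2 to 48.8), while Dtna stayed at 13 of 25.

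**Figure D4:**
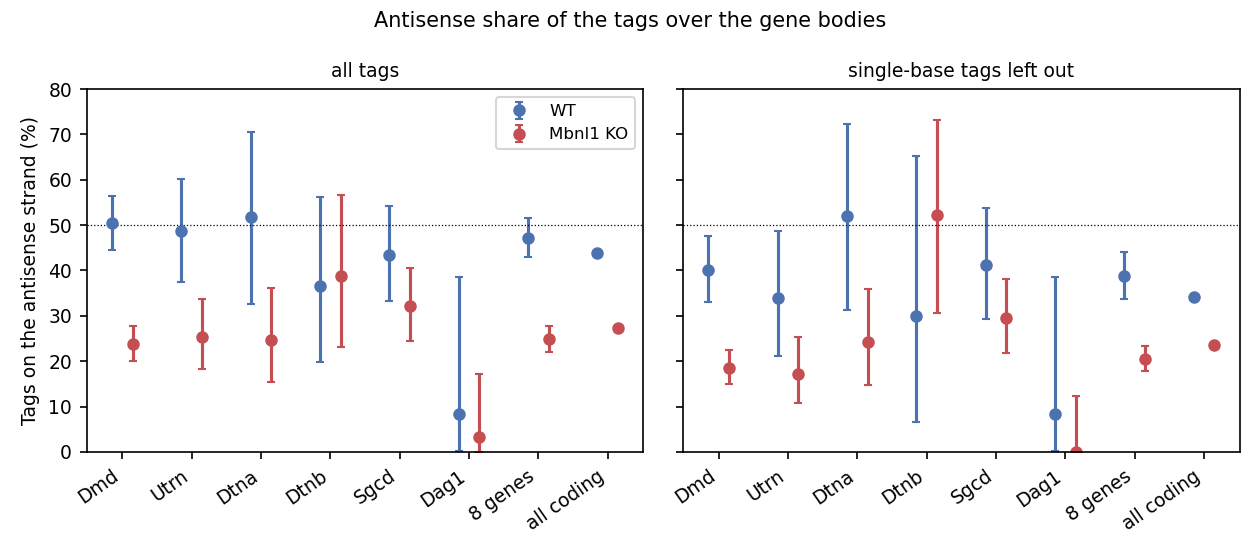
Share (%) of the tags over each gene that lay on the antisense strand, in WT (blue) and Mbnl1 KO muscle (red), for the 6 genes with at least 20 tags, the 8 genes together and all protein-coding genes, with exact 95% intervals for counting error only and a dotted line where both strands have equal counts. With all tags (left) the WT share is 50.5% for Dmd and the Mbnl1 KO share 23.7%, and without single-base tags (right) the Dmd shares are 40.1% and 18.5%.

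The tetramers marked above were found around sense and antisense tags alike. Among tags that were not single-base, a window of 30 bases around the tag held at least 1 of those tetramers in 44.7% (41.4 to 48.1) of the 870 sense tags and in 39.2% (33.7 to 44.9) of the 306 antisense tags of the 8 genes. Of all windows of that length in the introns of the 8 genes, 20.6% on the sense strand and 19.8% on the antisense strand held one. Both kinds of tag thus lay on windows with a tetramer more often than introns at large. The sets are unlike, since the intron windows were not cleared of single-base runs as the tags were, and 87 of the sense tags were not intronic. Intronic sense tags of the 8 genes had a tetramer less often (43.6%) than those of all coding genes (51.0%). None of these differences was tested. Tags in exons and 3′ UTRs had a tetramer in 48 of 87 cases (55.2%, 44.1 to 65.9). In Dmd it was 42.6% of sense and 32.1% of antisense tags, and in Utrn 55.8% and 45.9%. Sgcd and Dtnb had the other order, Sgcd with 36.6% (28.4 to 45.5) of sense and 43.9% (31.7 to 56.7) of antisense tags and Dtnb with 6 of 18 (13.3 to 59.0) and 9 of 15 (32.3 to 83.7), and in both the intervals overlap. Dag1 had a tetramer in 23 of 39 sense tags (59.0%). A tetramer in a window is a match of letters and does not show a binding site.

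Intronic tags lay near exons about as often as the length of that zone would give. Of the 885 intronic tags 37, or 4.18% (2.96 to 5.72), lay within 500 nt of an exon, and that zone makes up 5.08% of the intron length of the genes with intronic tags. Dmd had 3.99% of its intronic tags in a zone of 3.49% of the length. In Utrn it was 5.30% (2.16 to 10.6) of tags in 15.1% of the length, fewer near exons than the length alone would give. In Sgcd it was 4 of 145 tags, 2.76% (0.757 to 6.91), in 1.02% of the length, which that interval covers. All 4 came from Mbnl1 KO muscle, where they were 4.30% (1.18 to 10.6) of 93 tags, and WT had 0 of 52. The Mbnl1 KO interval lies above the share of the length, but it rests on 4 tags and treats them as independent. These counts are too small to tell the genotypes apart. Muscleblind sites that act on splicing usually lie close to the exon they act on, and such positions held few of the tags of these genes.

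The wider complex had ratios on both sides of 1. A list of 29 further genes of the complex, its ligands and the enzymes that put sugars on dystroglycan had 27 matches in the annotation, 15 of them with at least 20 tags. Of those 15, 4 had a ratio of at least 2, 12 were above 1 and the median was 1.37, beside 41.5%, 79.9% and 1.74 for the 3877 genes. Without single-base tags the median was 1.02. The intervals lay above 1 for 3 of the 15, beside 38.4% of the 3877 genes. They were those of Lama2, the laminin chain that binds dystroglycan (35 WT and 97 Mbnl1 KO tags, ratio 1.998, 1.34 to 3.03), of Hspg2, the basement membrane protein perlecan (21 and 84 tags, 2.88, 1.77 to 4.90), and of B3galnt2, an enzyme that extends the sugar chain of dystroglycan (2 and 22 tags, 7.93, 1.95 to 69.6). With the exon scaling these ratios were 0.722, 1.04 and 2.87, so that Lama2 turned. The 2 genes that made up the rest of the 4 were Sgce (2.60, or 0.938 with that scaling) and Pomt2 (2.16, or 0.782), at 23 and 20 tags. A further sarcoglycan, Sgcz, stood at 1.09, and Sspn, the gene of sarcospan, which associates with the sarcoglycans, at 1.37. Among the genes that carry signalling proteins to dystrophin, ratios were 1.27 for Sntb1, 0.788 for Sntg1 and 1.04 for Sntg2, and Nos1, a nitric oxide synthase anchored at the complex, had 1.16. Dysf, needed for membrane repair, stood at 0.918, and Large and Ispd, which act on dystroglycan sugars, at 1.42 and 1.37. Without single-base tags Ispd had 5 and 30 tags and a ratio of 2.95 (1.13 to 9.74), while Hspg2 (1.97) and Pomt2 (1.84) went below 2. Cav3 had no tag in either table, which allows up to 8.73 CPM in WT and 6.30 in Mbnl1 KO muscle.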

How the data were processed

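Mbnl2 HITS-CLIP tags of quadriceps muscle were analysed, as 1 merged table of 3 mice per genotype. The authors used RNase trimming and antibody mAb 3B4, removed low-quality reads, aligned with BWA to mm9 (submitters' processing notes, no version), discarded sequences under 20 nt and removed potential PCR duplicates. The authors deposited beside every tag a count of the reads it stands for, which was not normalised. The methods name a mixed C57BL/129 background for the compound crosses, while the labels give C57BL/6. The deposited tags were nonetheless 18 to 33 nt long (median 24).

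Tags were assigned by strand to GENCODE vM1 genes on mm9: to the 3′ UTR first, then to any other exon, then to introns. Ratios are Mbnl1 KO over WT CPM (tags per 1000000 tags of the table), with exact Clopper-Pearson 95% intervals for counting error. PCR copies without molecular identifiers are not independent molecules. Python 3.11.15, numpy 2.4.6, pandas 2.3.3, scipy 1.17.1 and matplotlib 3.10.9 were used, and the counting was tested on simulated data. Overlapping tags were joined into pile-ups.

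The genes and lists were chosen with earlier results of these data known. All 8 genes were named, as were genes of the wider list with at least 20 tags (1 of them is not reported here), and for each gene the pile-up with the most tags that were not single-base. Alternatives were other scalings, tag filters, thinning of reads, assignment by midpoint, the longest coding transcript, other minimum counts and the sum without Dmd.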

Additional observations from a re-analysis of the deposited data

How the results depend on the processing

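No paired analysis was possible because each genotype has 1 merged table. The scaling decided the direction. With tags in exons of protein-coding genes, 3′ UTRs included, as the total (21240 in WT and 81499 in Mbnl1 KO muscle), the ratio of the 8 genes turned to 0.638 for gene bodies. It turned to 0.977 for 3′ UTRs and 0.613 for introns and moved to 1.04 for other exons. Only Sgca, at 9 tags, reached a ratio of 2. None of the members with at least 20 tags did, beside 4.75% of all genes with that many. Dmd (0.690), Utrn (0.636), Dag1 (0.687), Sgcb (0.912) and Sgcd (0.466) went below 1. Divided by the gene body ratio of the median gene, the ratio of the 8 genes was 1.02 for gene bodies and 0.977 for introns. Again only Sgca reached 2, where 13.6% of the genes with at least 20 tags did. Raw tags gave 2.45 and 2.35, with 6 genes, Sgca and Sgcb among them (62.8% of all genes with at least 20 tags). Thinning the Mbnl1 KO reads gave 2.33 and 2.16, with 5 genes (no share over all genes was computed) and an antisense share of 14.9% in Mbnl1 KO muscle. Without single-base tags the ratios were 1.47 and 1.43 and the antisense shares 38.8% (WT) and 20.5% (Mbnl1 KO). With tags of at least 2 reads introns gave 1.43 and the shares were 30.5% and 13.8%. Both filters together gave 1.38 and 1.29, with 21.7% and 11.6%. With either of the last settings other exons had 0 tags in WT and 17 in Mbnl1 KO muscle and no ratio was had. Collapsing tags with the same 5′ end gave an antisense share of 28.0% in Mbnl1 KO muscle. The number of pile-ups was 10 at 5 tags, 0 at 20 tags and 1 without single-base tags. Leaving out Dmd, chosen after seeing the data, gave 1.62 for gene bodies. The causes of these shifts were not tested. The share of genes with a ratio of at least 2 was 39.2% at 10 tags and 47.8% at 50. Depth limits Sgca and Sgcb, at 9 tags each.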
